A study of Mus musculus with 10 samples.

Results

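The genes described here are 48 cell cycle genes of the mouse, listed by name for the steps from G1 to mitosis, and all 48 were found in a count table of 55359 genes. They fall into 12 regulators of the passage from G1 into S phase, 15 genes of DNA replication in S phase and 21 genes of G2 and mitosis. All 48 passed the filter on low counts, as members of the 15777 genes that were tested. They were measured by bulk RNA sequencing in pmel-1 T cells, which are mouse CD8 T cells whose transgenic receptor sees gp100, an antigen of melanoma. Cells of the spleen were activated for 48 h with the human gp100 peptide, kept in human IL-2 for another 48 h, electroporated with mRNA and harvested 24 h later.

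The groups have 2 libraries each, called biological replicates in the labels, and the labels do not say whether they came from separate mice. The mixture group received mRNA for single-chain IL-12 together with mRNA for DRIL18, a decoy-resistant form of the cytokine IL-18. The IL12 group received the IL-12 mRNA alone, and the DRIL18 group the DRIL18 mRNA alone. The Mock group was electroporated, and the mRNA it received is not stated. The NoEp group, whose genotype and treatment are labelled WT, was read as cells without electroporation. The labels give all 5 groups the same protocol of activation and IL-2 culture. For NoEp that text also names electroporation, so how NoEp was handled in the last 24 h is not stated separately. Age, sex and number of mice are not stated in the labels. The p-values below therefore measure the spread between these libraries, which may be technical.

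A cell commits to division in G1, when D-type cyclins with the kinases Cdk4 and Cdk6, and later cyclin E with Cdk2, inactivate the retinoblastoma protein and release E2F transcription factors. E2F factors switch on genes of DNA replication, among them the Mcm helicase and the enzymes that make deoxynucleotides. The G2 and mitosis genes follow later in the cycle under factors such as Foxm1, and drive chromosome condensation, spindle assembly and cytokinesis. CD8 T cells divide rapidly after they meet antigen, and IL-2 keeps them cycling in culture.

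The mark bis, whose meaning is not stated, stands in the column names of both mixture and both NoEp libraries and of replicate 2 of IL12 and of DRIL18. It thus separates both Mock libraries from all mixture and NoEp libraries.

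The libraries held between 31281944 and 35062545 counts, with 20326 to 21358 genes detected. Levels are given as CPM, counts relative to library sizes that were scaled by TMM. Differences are log2 fold changes ± SE from edgeR's quasi-likelihood test over all 10 libraries. A gene was called where the Benjamini-Hochberg adjusted p-value over the 15777 genes was under 0.05. Over all tested genes the median log2 fold change lay between -0.02 and 0.00 in each comparison. The delivered DRIL18 mRNA could be seen in counts of Il18, and the IL-12 mRNA was not checked in this way. Il18 was at 403 and 361 CPM with the mixture and 412 and 401 CPM with DRIL18, against 1.84 and 1.84 CPM in Mock. Ifng, which T cells make in response to both cytokines, was at 8882 and 9109 CPM with the mixture. It was at 210 and 189 CPM with IL12, 17.5 and 17.2 CPM with DRIL18, and 0.906 and 1.43 CPM in Mock. The T cell markers were abundant in every group, the B cell list summed to between 20.5 and 35.1 CPM, and the NK cell list to at most 0.629 CPM.

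With the mixture of both mRNAs, the genes of G2 and mitosis were lower as a class, whereas most genes of DNA replication differed little from Mock and the G1/S regulators moved in both directions. The mitotic genes made up 0.535% and 0.542% of all counts with the mixture, 0.675% and 0.688% with IL12, 0.722% and 0.707% with DRIL18, 0.843% and 0.826% in Mock, and 0.779% and 0.826% in NoEp. Both mixture libraries were the lowest, both IL12 and both DRIL18 libraries lay between them and Mock, and none of these groups overlapped with another. The replication genes made up 0.453% and 0.449% of counts with the mixture, 0.479% and 0.479% with IL12, 0.462% and 0.462% with DRIL18, 0.463% and 0.459% in Mock, and 0.412% and 0.416% in NoEp. Here NoEp was the lowest group and IL12 the highest. The G1/S regulators took between 0.195% and 0.208% of counts in all 10 libraries. In bulk RNA, fewer cells in a phase and less of a transcript in each cell cannot be told apart.

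In the mixture against Mock, 14 of the 48 genes were called higher and 28 lower, where 63.9% of all tested genes were called, 32% higher and 31.9% lower. The counts by class were 0 higher and 21 lower of 21 mitotic genes, 7 higher and 3 lower of 15 replication genes, and 7 higher and 4 lower of 12 G1/S regulators. With the mark bis as a covariate, 13 of the 48 were higher and 25 lower, where 53.8% of all tested genes were called. The median log2 fold change was -0.48 for the mitotic genes, 0.06 for the replication genes and 0.19 for the G1/S regulators. The sizes were not large for this comparison. The median absolute log2 fold change of the 48 genes was 0.28, against 0.47 over all tested genes, and that of the mitotic genes was 0.48. The share of replication genes called, 10 of 15, was near the background.

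**Figure D1:**
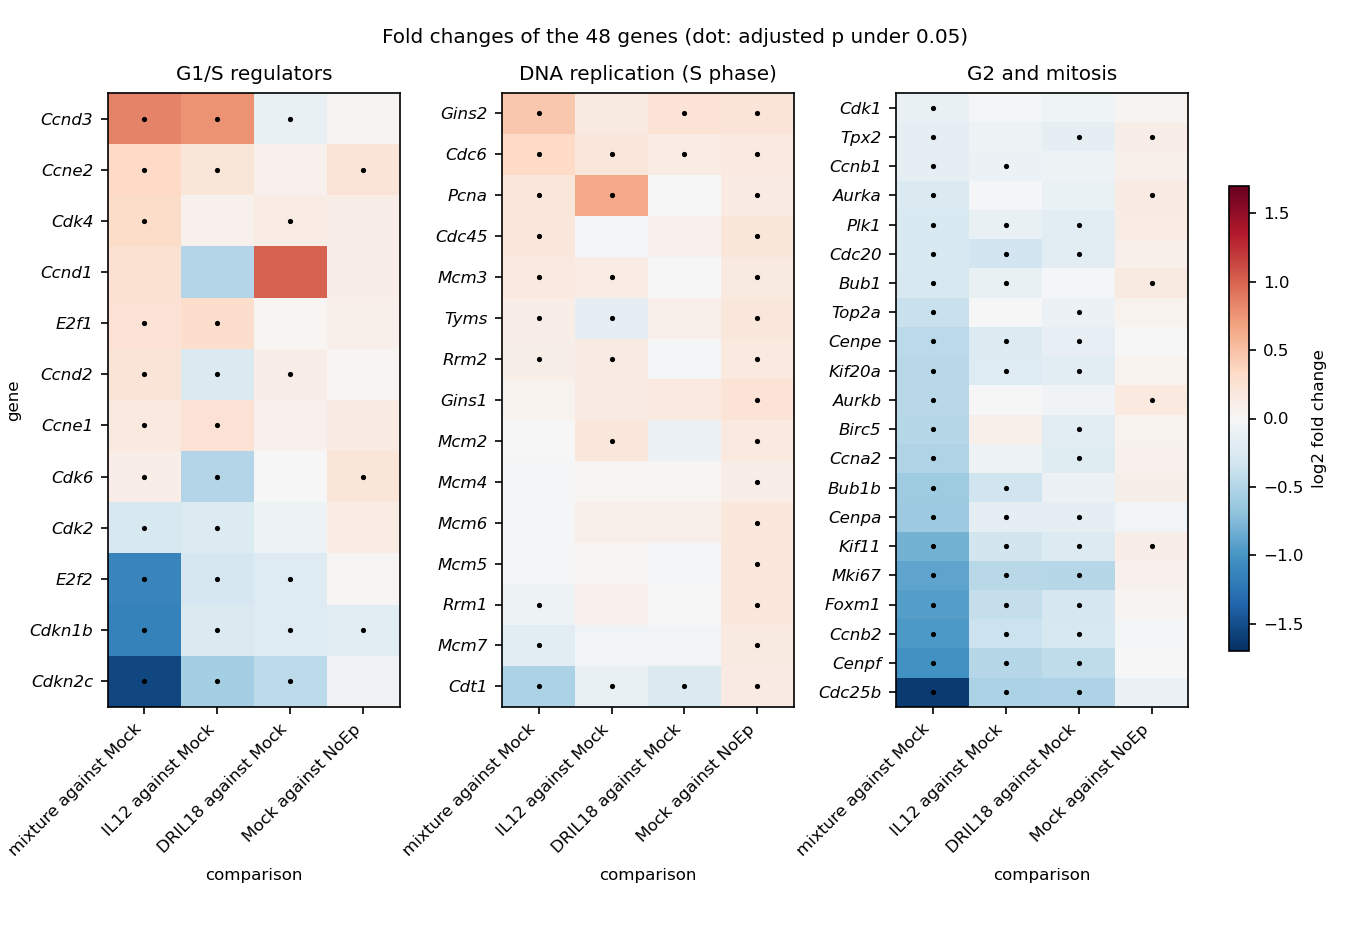
Log2 fold changes of the 48 genes in 3 classes (rows: genes, ordered by the mixture column; columns: comparisons; colour: log2 fold change; dot: adjusted p under 0.05). The mixture column is blue and dotted for all 21 mitotic genes, pale for most replication genes, and holds both colours for the G1/S regulators.

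**Figure D2:**
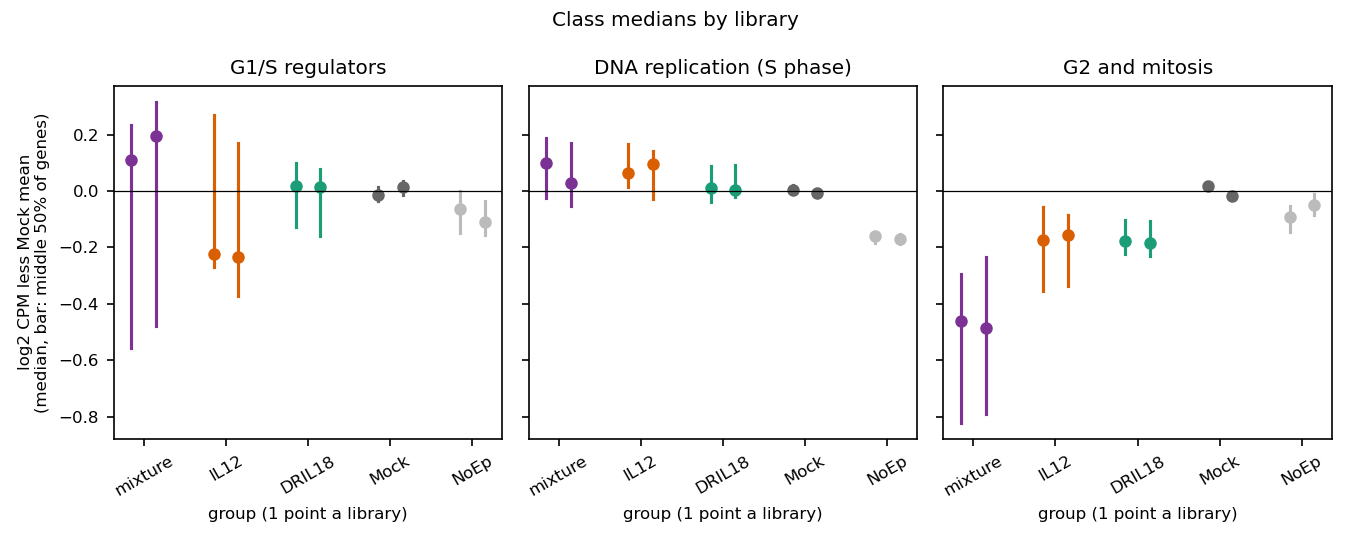
Median over the genes of a class of the log2 CPM less the mean of both Mock libraries, for each library (points; bars span the middle 50% of the genes). The mitotic medians are -0.46 and -0.49 in the mixture libraries and between -0.15 and -0.19 in the IL12 and DRIL18 libraries, and the replication medians of all electroporated libraries lie above those of NoEp.

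Letters that cell cycle factors are known to recognise were searched in promoters, since the classes moved differently. RefSeq promoters on GRCm38.p6, each with 250 bases before and 50 after the start, were found for 37 of the 48 genes, which have 41 promoters. Both strands were searched for the letters TTTGAA, the cell cycle homology region bound by the DREAM and Myb-MuvB complexes. The letters CCAAT, the core of the NF-Y site, were searched likewise. So were 3 forms of the E2F site, which can overlap each other on opposite strands. The first form was TTCCCGC, another was TTGGCGC, and the last was TTCGCGC in the 5′ to 3′ direction. The cell cycle homology region TTTGAA stood in 11 of 16 mitotic promoters (68.8%), in 2 of 13 replication promoters (15.4%) and in 1 of 12 promoters of G1/S regulators (8.33%), against 17.9% of all 32851 promoters in the table. An E2F form stood in 3 of 16 mitotic promoters (18.8%), in 8 of 13 replication promoters (61.5%) and in 3 of 12 promoters of G1/S regulators (25%), against 8.07% of all promoters. CCAAT stood in 15 of 16 mitotic (93.8%), 10 of 13 replication (76.9%) and 6 of 12 G1/S promoters (50%), against 37.4% of all. A match in these windows is a description of the letters, and the binding of no factor was measured.

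The 200 bases before the start are shown for 4 chosen mitotic genes, Ccnb2, Mki67, Kif11 and Cdc25b, and for the helicase genes Mcm5 and Mcm6, which differed little from Mock. Capitals mark matches on either strand, either to TTTGAA, to the NF-Y letters or to an E2F form. Cdc25b, which fell the most, has an NF-Y match but no TTTGAA in its window. Among genes not shown, Cdk1 has 2 TTTGAA matches in its window and the smallest mitotic change with the mixture (-0.12). Cdt1 has 2 E2F forms in its window and fell with the mixture (-0.53). The sequences read 5′ to 3′ along the gene, on GRCm38.p6.
Ccnb2, chr9:70421555-70421754, minus strand: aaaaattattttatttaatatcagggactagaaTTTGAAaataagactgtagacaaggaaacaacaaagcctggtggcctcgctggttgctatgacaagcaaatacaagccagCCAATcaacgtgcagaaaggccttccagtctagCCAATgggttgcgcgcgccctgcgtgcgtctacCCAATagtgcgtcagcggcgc
Mki67, chr7:135716380-135716579, minus strand: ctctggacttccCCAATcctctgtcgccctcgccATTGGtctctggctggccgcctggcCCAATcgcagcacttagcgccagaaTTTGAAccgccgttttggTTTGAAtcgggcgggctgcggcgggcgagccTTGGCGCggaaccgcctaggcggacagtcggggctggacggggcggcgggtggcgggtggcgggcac
Kif11, chr19:37376182-37376381, plus strand: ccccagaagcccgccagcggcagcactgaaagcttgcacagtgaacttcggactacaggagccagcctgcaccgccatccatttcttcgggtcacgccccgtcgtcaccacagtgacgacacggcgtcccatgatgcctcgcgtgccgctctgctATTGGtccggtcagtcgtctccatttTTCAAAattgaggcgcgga
Cdc25b, chr2:131186748-131186947, plus strand: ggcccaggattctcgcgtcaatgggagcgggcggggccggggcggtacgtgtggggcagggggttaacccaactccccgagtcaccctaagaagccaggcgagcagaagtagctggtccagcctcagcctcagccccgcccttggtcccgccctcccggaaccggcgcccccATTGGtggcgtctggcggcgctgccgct
Mcm5, chr8:75109309-75109508, plus strand: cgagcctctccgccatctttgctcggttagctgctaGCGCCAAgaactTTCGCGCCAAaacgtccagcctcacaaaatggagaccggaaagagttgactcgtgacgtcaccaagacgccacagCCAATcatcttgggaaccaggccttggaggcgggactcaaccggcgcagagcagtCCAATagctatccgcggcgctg
Mcm6, chr1:128359706-128359905, minus strand: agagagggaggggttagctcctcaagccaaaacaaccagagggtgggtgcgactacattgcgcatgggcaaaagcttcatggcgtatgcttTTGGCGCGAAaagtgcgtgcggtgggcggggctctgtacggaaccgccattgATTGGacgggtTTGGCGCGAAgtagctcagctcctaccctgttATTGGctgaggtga
Mcm5 and Mcm6 hold several E2F forms, some overlapping, and no TTTGAA among the bases shown. Among the bases shown, Ccnb2 and Kif11 hold 1 TTTGAA each and no E2F form, and Mki67 holds a pair of TTTGAA and 1 E2F form. In the longer window used for the shares, Ccnb2 has 2 TTTGAA.

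The widest change among the mitotic genes was that of Cdc25b, a phosphatase that activates Cdk1 at the entry into mitosis. Cdc25b was at 100.4 and 106 CPM with the mixture, 220.2 and 221 with IL12, 219 and 226 with DRIL18, 337 and 302 in Mock, and 328 and 359.6 in NoEp. Both mixture libraries lay below both libraries of every other group, and both single-mRNA groups lay below the controls. With the mixture Cdc25b fell to 0.324 of the Mock level (log2 fold change -1.63 ± 0.05, adjusted p = 2.72e-23). With IL12 alone the log2 fold change was -0.53 ± 0.05 (adjusted p = 2.91e-11) and with DRIL18 alone -0.52 ± 0.05 (adjusted p = 2.2e-10).

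Foxm1, the transcription factor of many G2 and mitosis genes, was at 124 and 126 CPM with the mixture, 184 and 179 with IL12, 198 and 197 with DRIL18, 244 and 235 in Mock, and 231 and 233 in NoEp. It fell with the mixture (-0.94 ± 0.04, adjusted p = 8.55e-20), with IL12 (-0.40 ± 0.04, adjusted p = 1.56e-10) and with DRIL18 (-0.28 ± 0.04, adjusted p = 7.29e-07). Mki67, which encodes the proliferation marker Ki-67 that coats mitotic chromosomes, was at 835 and 861 CPM with the mixture, 1105 and 1176 with IL12, 1152 and 1106 with DRIL18, 1597 and 1567 in Mock, and 1436 and 1572 in NoEp. The mixture libraries of both genes were the lowest, the IL12 and DRIL18 libraries lay below the controls, and for Mki67 IL12 and DRIL18 overlapped with each other, as did Mock and NoEp. Its log2 fold changes against Mock were -0.90 ± 0.04 (adjusted p = 1.16e-18) with the mixture, -0.47 with IL12 and -0.49 with DRIL18.

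**Figure D3:**
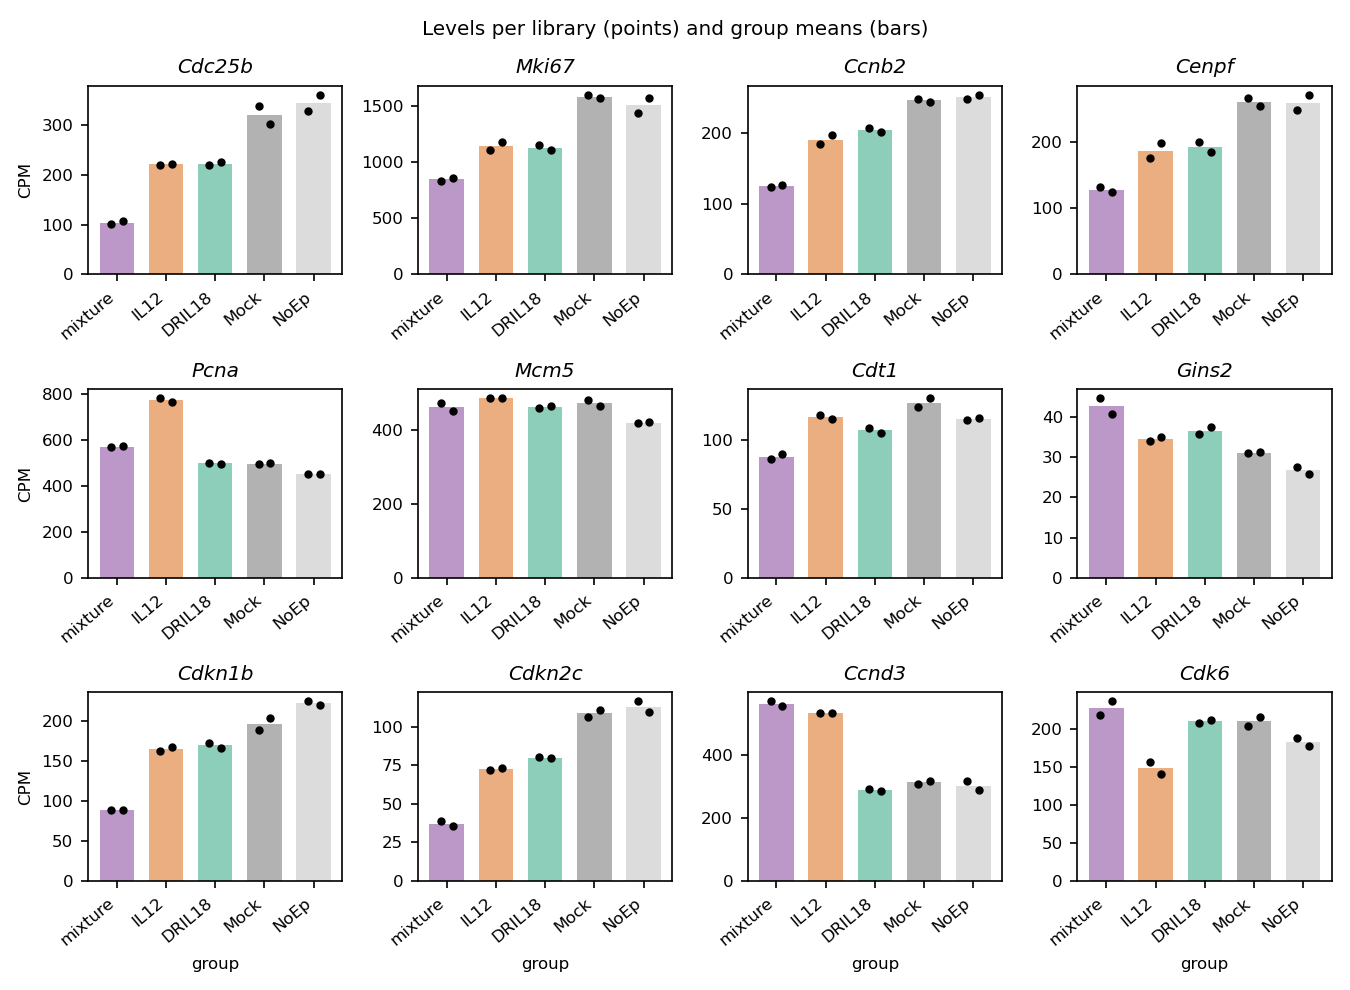
Levels in CPM of 12 of the genes (points: single libraries; bars: group means; axes start at 0). The upper row shows 4 mitotic genes with the mixture libraries lowest, the middle row 4 replication genes with Pcna highest in IL12 and Mcm5 lowest in NoEp, and the lower row 4 G1/S regulators, with Cdkn1b and Cdkn2c lowest in the mixture and Ccnd3 high in the mixture and IL12.

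The cyclins of mitosis had changes of different size. Ccnb2, a B-type cyclin that partners Cdk1, was at 124 and 126 CPM with the mixture, 184 and 197 with IL12, 207 and 201 with DRIL18, 248 and 244 in Mock, and 248 and 254 in NoEp. It fell with the mixture to 0.509 of the Mock level (-0.97 ± 0.04, adjusted p = 1.07e-19). Ccnb1, the main mitotic B-type cyclin, was at 217 and 209 CPM with the mixture, 225 and 219 with IL12, 227 and 221 with DRIL18, 241 and 234 in Mock, and 215 and 231 in NoEp. Its libraries lie close together in all groups, and its log2 fold change with the mixture was -0.16 ± 0.04 (adjusted p = 0.001), which was not called (adjusted p = 0.0954) when the mark bis was a covariate. Ccna2, the A-type cyclin of S phase and G2, fell with the mixture (-0.50 ± 0.04, adjusted p = 2.79e-13) and with DRIL18 (-0.20 ± 0.04, adjusted p = 9.56e-05), and had -0.08 ± 0.04 (adjusted p = 0.0645) with IL12. Cdk1, the kinase of mitotic entry, was at 177 and 175 CPM with the mixture, 188 and 190.4 with IL12, 184 and 179 with DRIL18, 196 and 187 in Mock, and 187 and 185 in NoEp. It had the smallest change of the class with the mixture (-0.12 ± 0.04, adjusted p = 0.00508), and this call was lost without Mock replicate 1 and with the mark bis as a covariate (highest adjusted p = 0.113).

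Kinases and the spindle checkpoint genes had mostly smaller changes. Aurkb, the kinase of the chromosomal passenger complex, was at 157 and 154 CPM with the mixture, 214 and 216 with IL12, 211 and 204 with DRIL18, 219 and 213 in Mock, and 186 and 198 in NoEp. Its partner in that complex, Birc5 (survivin), was at 188 and 187 CPM with the mixture, 283 and 275 with IL12, 237 and 229 with DRIL18, 267 and 258 in Mock, and 249 and 256 in NoEp. Both genes were lowest in the mixture libraries, while the IL12 libraries overlapped with Mock for Aurkb and lay above Mock for Birc5. Aurkb fell with the mixture by 0.48 on the log2 scale and Birc5 by 0.48, while in IL12 the log2 fold changes against Mock were -0.01 and 0.09 and did not pass the test (adjusted p = 0.885 and 0.0532). Bub1b, a kinase-like protein of the spindle checkpoint, was at 169 and 168 CPM with the mixture, 201 and 203 with IL12, 241 and 239 with DRIL18, 259 and 255 in Mock, and 230.5 and 246 in NoEp. It fell with the mixture (-0.61 ± 0.04, adjusted p = 5.69e-15) and with IL12 (-0.35 ± 0.04, adjusted p = 5.54e-09), and its log2 fold change with DRIL18 was -0.10 ± 0.04 (adjusted p = 0.054). Bub1, another checkpoint kinase, was at 119 and 116 CPM with the mixture, 131 and 131 with IL12, 139 and 139 with DRIL18, 146 and 139 in Mock, and 123 and 133 in NoEp. Its mixture libraries were the lowest (-0.28 ± 0.04, adjusted p = 1.47e-06), and with DRIL18 it had the smallest difference of the class (-0.03 ± 0.04, adjusted p = 0.641).

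Plk1, the polo kinase of spindle assembly, had -0.26 ± 0.04 (adjusted p = 1.14e-06) with the mixture, and Aurka, the kinase of the spindle poles, -0.24 ± 0.04 (adjusted p = 1.52e-05). Tpx2, which activates Aurora A on the spindle, was at 291 and 304 CPM with the mixture, 312 and 312 with IL12, 291 and 297 with DRIL18, 334 and 326 in Mock, and 298 and 311 in NoEp. The mixture, IL12 and DRIL18 libraries of Tpx2 lay close together and all below Mock, and the difference between the mixture and DRIL18 was not called (0.02 ± 0.04, adjusted p = 0.716). Cdc20, the activator of the anaphase promoting complex, was at 195 and 204 CPM with the mixture, 199 and 183 with IL12, 208 and 209.9 with DRIL18, 243 and 236 in Mock, and 224 and 229 in NoEp. It fell about as much with IL12 (-0.33 ± 0.04, adjusted p = 4.89e-08) as with the mixture (-0.26 ± 0.04, adjusted p = 8.24e-07), and the 2 groups overlapped.

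The motors and kinetochore genes all fell with the mixture. The kinesin genes Kif11, the spindle motor Eg5, and Kif20a, which acts in cytokinesis, had -0.81 ± 0.04 (adjusted p = 6.46e-19) and -0.47 ± 0.04 (adjusted p = 7.2e-12). Among centromere genes, Cenpf changed most (-1.03 ± 0.05, adjusted p = 1.08e-17), followed by Cenpa, the centromeric histone H3 variant (-0.62 ± 0.04, adjusted p = 1.4e-14), and the kinetochore motor gene Cenpe (-0.45 ± 0.04, adjusted p = 2.69e-11). Top2a, the topoisomerase that untangles chromosomes, was at 1314 and 1294 CPM with the mixture, 1723 and 1711 with IL12, 1581 and 1584 with DRIL18, 1697 and 1706 in Mock, and 1598 and 1660.3 in NoEp. The mixture libraries were the lowest for Top2a (-0.38 ± 0.03, adjusted p = 1.15e-11), while in IL12 the log2 fold change was 0.01 ± 0.03 (adjusted p = 0.782).

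Across the class, 11 of the 21 mitotic genes were called lower in all 3 comparisons with Mock, which share the Mock libraries, where 7.31% of all tested genes were. In DRIL18 against Mock, 4 of the 48 genes were called higher and 20 lower (24.3% of all genes called, 12.2% higher and 12.1% lower), with 15 of the mitotic genes lower and none higher. The number of the 48 called higher was 0 without DRIL18 replicate 2, 1 without Mock replicate 1 and 2 without Mock replicate 2. In IL12 against Mock, 9 were called higher and 22 lower (46.6% of all genes called, 23% higher and 23.6% lower), with 14 of the mitotic genes lower and none higher. The mitotic medians were -0.18 for DRIL18 and -0.15 for IL12. Of the calls of at least 1.5-fold with the mixture, 11 of the 48 genes were lower, 8 of them mitotic, and 1 was higher, where 34.5% of all genes were past that size, 16.5% higher and 18% lower. With IL12, 2 of the 48 were higher by that much and 0 lower, against 15.7% of all genes, 7.3% higher and 8.43% lower. With DRIL18, 0 of the 48 were, against 4.08% of all genes, 2.66% higher and 1.42% lower. Counts of mitotic genes called lower with the mixture were 19 with the mark bis as a covariate and between 20 and 21 without single libraries.

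The mixture was also compared with each single mRNA. Against IL12, which shows the difference that DRIL18 made beside IL-12, 8 of the 48 genes were called higher and 27 lower (52.2% of all genes called, 25.8% higher and 26.3% lower), with 18 of the mitotic genes lower and none higher at a median of -0.40. Against DRIL18, 13 were called higher and 23 lower (57.3% of all genes called, 28.3% higher and 29% lower), with 16 of the mitotic genes lower and none higher at a median of -0.31. Without mixture replicate 2, the number higher against DRIL18 was 8. Cdc25b led both, at -1.09 ± 0.05 (adjusted p = 1.76e-18) against IL12 and -1.10 ± 0.05 (adjusted p = 9.92e-19) against DRIL18.

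Markers of CD8 T cells, like the mitotic genes, were lowest with the mixture, higher with IL12, then DRIL18, then Mock, while in NoEp their sums were the highest and the mitotic share was not. The summed level of 9 markers (Cd3d, Cd3e, Cd3g, Cd8a, Cd8b1, Trac, Thy1, Cd2 and Lck) was 3668 to 3678 CPM with the mixture, 4437 to 4576 with IL12, 4851 to 4909 with DRIL18, 5261 to 5346 in Mock and 5384 to 5591 in NoEp, and all 9 were called lower in the mixture against Mock. In that comparison 31.9% of all tested genes were called lower. The part of the lower marker levels in the result was not tested. The other marker lists did not have that order. The 8 B cell genes summed to 32.0 to 35.1 CPM with the mixture, 20.5 to 22.6 with IL12, 29.0 to 30.8 with DRIL18, 24.4 to 25.6 in Mock and 29.4 to 31.3 in NoEp. The 13 myeloid and dendritic cell genes summed to at most 28.0 CPM in any library, with Siglech, Clec9a, S100a8 and S100a9 at 0. The 5 CD4 and regulatory T cell genes summed to 182 to 188 CPM with the mixture, 324 to 334 with IL12, 241 to 243 with DRIL18, 209 to 215 in Mock and 238 to 245 in NoEp. The 6 erythroid genes summed to 836 to 854 CPM with the mixture, 654 to 685 with IL12, 551 to 553 with DRIL18, 439 to 457 in Mock and 391 to 395 in NoEp, nearly all of it Tfrc, the transferrin receptor gene that dividing cells also express.

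DNA replication genes showed a different picture. The 6 subunits of the Mcm helicase, Mcm2 to Mcm7, which opens DNA at replication forks, had a median log2 fold change of -0.02 with the mixture. Of these 6, 1 was called higher and 1 lower, where 32% of all tested genes were called higher and 31.9% lower. Mcm3 was the higher one (0.17 ± 0.03, adjusted p = 0.000109) and Mcm7 the lower one (-0.17 ± 0.03, adjusted p = 6.21e-05). Mcm5 was at 473 and 450.1 CPM with the mixture, 485 and 485 with IL12, 458 and 465 with DRIL18, 479.7 and 465 in Mock, and 417 and 419.7 in NoEp. Its NoEp libraries were the lowest, both IL12 libraries were the highest, and the mixture, DRIL18 and Mock libraries overlapped. Mcm4 was at 353 and 364 CPM with the mixture, 378 and 364 with IL12, 369 and 377 with DRIL18, 365 and 362 in Mock, and 332 and 338 in NoEp. NoEp was again the lowest, and the mixture libraries overlapped with Mock (-0.02 ± 0.04, adjusted p = 0.666) and lay below DRIL18.

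Pcna, the sliding clamp of DNA polymerases, was the replication gene with the largest response to IL12. It was at 569.6 and 573 CPM with the mixture, 783 and 769 with IL12, 503 and 498 with DRIL18, 498 and 499 in Mock, and 453 and 451 in NoEp. The IL12 libraries were far above all others, and the mixture libraries lay between them and the rest. Pcna rose with IL12 to 1.56 times the Mock level (0.64 ± 0.03, adjusted p = 2.96e-16) and with the mixture by 0.20 on the log2 scale (adjusted p = 7.23e-06), so that the mixture was lower than IL12 (-0.44 ± 0.03, adjusted p = 1.25e-12). With DRIL18 the log2 fold change was 0.00 ± 0.03 (adjusted p = 0.946).

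Loading factors of the helicase moved apart. Cdt1, which loads Mcm2 to Mcm7 onto origins, was at 86.1 and 89.4 CPM with the mixture, 118 and 115 with IL12, 109 and 105 with DRIL18, 124 and 130.2 in Mock, and 115 and 116 in NoEp. Cdt1 was lowest with the mixture (-0.53 ± 0.04, adjusted p = 2.27e-12) and also fell with DRIL18 (-0.25 ± 0.04, adjusted p = 4.33e-05). With IL12 Cdt1 fell less (-0.12 ± 0.04, adjusted p = 0.0203). Its partner Cdc6 went the other way and was at 115 and 114 CPM with the mixture, 104 and 104 with IL12, 99.9 and 98.2 with DRIL18, 88.3 and 94 in Mock, and 82 and 80.2 in NoEp, highest with the mixture (0.33 ± 0.04, adjusted p = 5.87e-08). Gins2, a subunit of the GINS complex that joins the helicase at the fork, was at 44.8 and 40.8 CPM with the mixture, 34.1 and 35.1 with IL12, 35.7 and 37.6 with DRIL18, 31.1 and 31.3 in Mock, and 27.7 and 25.9 in NoEp. It rose with the mixture (0.46 ± 0.06, adjusted p = 1.82e-07), and was also called in DRIL18 against Mock (0.23 ± 0.06, adjusted p = 0.00666), a call that was lost without DRIL18 replicate 2 or Mock replicate 1 (highest adjusted p = 0.0925). Cdc45, the third component of the active helicase, rose with the mixture (0.19 ± 0.04, adjusted p = 0.000238). The other GINS gene, Gins1, was at 29.1 and 27.7 CPM with the mixture, 31.6 and 28.5 with IL12, 29.9 and 31.2 with DRIL18, 27.6 and 26.7 in Mock, and 23.2 and 22.9 in NoEp. The electroporated groups lay close together and NoEp lower (0.06 ± 0.07, adjusted p = 0.423 with the mixture).

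Enzymes of deoxynucleotide synthesis changed little. Tyms, thymidylate synthase, was at 126 and 123 CPM with the mixture, 107 and 99.1 with IL12, 123 and 121 with DRIL18, 119 and 110.3 in Mock, and 102 and 99.2 in NoEp. It was lowest with IL12 and in NoEp, and with the mixture it lay above IL12 (0.27 ± 0.05, adjusted p = 8.87e-06). The ribonucleotide reductase genes Rrm1 and Rrm2 had log2 fold changes of -0.08 and 0.10 with the mixture (adjusted p = 0.0413 and 0.011). The Rrm1 call was lost without any 1 of the mixture, Mock or DRIL18 libraries or NoEp replicate 1, and the Rrm2 call without mixture replicate 1 or Mock replicate 2 (highest adjusted p = 0.146 and 0.271). Of all tested genes, 24.3% were called in DRIL18 against Mock and 46.6% in IL12 against Mock. Over the class of 15, DRIL18 against Mock gave 2 replication genes higher and 1 lower, at a median of 0.00. IL12 against Mock gave 5 replication genes higher and 2 lower, at a median of 0.08. Those higher with DRIL18 were 0 without DRIL18 replicate 2 or Mock replicate 1 and 1 without DRIL18 replicate 1, and those lower with IL12 were 0 without IL12 replicate 2 and 1 without either Mock library.

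Among the G1/S regulators, the inhibitors of cyclin-dependent kinases fell with the mixture. Cdkn1b (p27), which inhibits cyclin E and Cdk2 and marks resting T cells, was at 88.9 and 88.5 CPM with the mixture, 162 and 167 with IL12, 173 and 165 with DRIL18, 189 and 203 in Mock, and 224 and 219 in NoEp. Cdkn2c (p18), which inhibits Cdk4 and Cdk6, was at 38.9 and 35.4 CPM with the mixture, 72.1 and 73 with IL12, 80.2 and 79.5 with DRIL18, 106 and 111 in Mock, and 116 and 109.6 in NoEp. The mixture libraries of both genes lay far below all others, at 0.453 and 0.343 of the Mock level. Cdkn1b had a log2 fold change of -1.14 ± 0.04 (adjusted p = 1.02e-20) with the mixture, -0.25 with IL12 and -0.21 with DRIL18. For Cdkn2c the values were -1.54 ± 0.05 (adjusted p = 6.42e-22), -0.58 and -0.44, and all 6 passed the test.

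The D-type cyclins and their kinases were split by the mRNAs. Ccnd3, the cyclin D of lymphocytes, was at 570.1 and 557 CPM with the mixture, 535 and 535 with IL12, 291 and 284 with DRIL18, 309 and 318 in Mock, and 317 and 289 in NoEp. It was high wherever IL-12 mRNA was given, and the difference between the mixture and IL12 was not called (0.08 ± 0.04, adjusted p = 0.103). Against Mock, Ccnd3 rose with the mixture (0.85 ± 0.04, adjusted p = 2.52e-18) and with IL12 (0.77 ± 0.04, adjusted p = 1.01e-16). Ccnd2 was at 416 and 419.7 CPM with the mixture, 302 and 305 with IL12, 384 and 395 with DRIL18, 358 and 361 in Mock, and 358 and 347 in NoEp. It was lowest with IL12 (-0.24 ± 0.04, adjusted p = 9.5e-07) and highest with the mixture (0.22 ± 0.03, adjusted p = 2.13e-06). Cdk6, a kinase partner of both cyclins, was at 218 and 236 CPM with the mixture, 156 and 141 with IL12, 207 and 212 with DRIL18, 204 and 215 in Mock, and 187 and 178 in NoEp. The IL12 libraries were the lowest (-0.50 ± 0.05, adjusted p = 1.98e-10), NoEp lay between them and the other groups, and the mixture libraries were the highest. The mixture call (0.11 ± 0.05, adjusted p = 0.0313) was lost without mixture replicate 2 or Mock replicate 1 (highest adjusted p = 0.397). Cdk4, the other partner, rose with the mixture (0.31 ± 0.04, adjusted p = 5.72e-09). Ccnd1 had between 6 and 22 counts in a library, 0.234 and 0.534 CPM with the mixture, 0.261 and 0.189 with IL12, 0.635 and 0.648 with DRIL18, 0.311 and 0.327 in Mock, and 0.283 and 0.306 in NoEp, and no group was called against Mock (adjusted p = 0.702 for the mixture, 0.535 for IL12 and 0.172 for DRIL18).

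Both cyclin E genes rose where IL-12 mRNA was given. Ccne2, a cyclin E, was at 66.4 and 64.6 CPM with the mixture, 62.4 and 57.9 with IL12, 54.9 and 54.1 with DRIL18, 52.4 and 51.4 in Mock, and 44.8 and 44.5 in NoEp, with 0.33 ± 0.05 (adjusted p = 1.18e-06) for the mixture and 0.21 ± 0.05 (adjusted p = 0.00116) for IL12. Its sister gene Ccne1 rose with the mixture (0.17 ± 0.05, adjusted p = 0.00234) and with IL12 (0.24 ± 0.05, adjusted p = 5.86e-05). Their kinase partner Cdk2 fell with the mixture (-0.27 ± 0.04, adjusted p = 9.73e-07) and IL12 (-0.24 ± 0.04, adjusted p = 1.94e-05). The E2F genes were opposed. E2f1 rose with the mixture (0.24 ± 0.06, adjusted p = 0.000771), whereas E2f2, at 118 and 117 CPM with the mixture, 213 and 207 with IL12, 218 and 221 with DRIL18, 249 and 263 in Mock, and 249 and 256 in NoEp, was lowest there (-1.13 ± 0.04, adjusted p = 1.59e-21).

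The single mRNAs were also compared directly. In IL12 against DRIL18, 12 of the 48 genes were called higher and 11 lower, where 39.5% of all genes were called, 18.9% higher and 20.6% lower. Pcna (0.63 ± 0.03, adjusted p = 3.66e-16) and Ccnd3 (0.90 ± 0.04, adjusted p = 2.32e-18) were higher with IL12, as was Mcm2 (0.29 ± 0.04, adjusted p = 1.29e-07). Cdk6 (-0.50 ± 0.05, adjusted p = 2.63e-10) and Ccnd2 (-0.36 ± 0.04, adjusted p = 6.2e-10) were lower. The mitotic genes split into 3 higher, led by Birc5 (0.26 ± 0.04, adjusted p = 7.25e-07), and 4 lower, led by Bub1b (-0.25 ± 0.04, adjusted p = 3.44e-06). The Ccnd1 difference, at few counts, was also called lower (-1.50 ± 0.55, adjusted p = 0.0306) and was lost with DESeq2 and without any 1 library of these groups (highest adjusted p = 0.157). Without either DRIL18 library, 2 mitotic genes were lower. The number lower was 7 with DESeq2 and 6 without either DRIL18 library, and the number called was 14 without DRIL18 replicate 2.

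A departure of the mixture from the sum of both mRNAs on the log2 scale was tested as an interaction. From the mixture's log2 fold change over Mock, those of the IL12 and DRIL18 groups over Mock were subtracted. A negative value can be a larger fall or a smaller rise than the sum. Of the 48 genes, 5 had a positive and 18 a negative interaction, where 31.6% of all genes were called, 14.6% positive and 17.1% negative. Among the mitotic genes 10 were negative and 1 positive. Cdc25b had the most negative one (-0.57 ± 0.07, adjusted p = 3.28e-08), followed by Aurkb (-0.41 ± 0.06, adjusted p = 4.18e-07) and Birc5 (-0.40 ± 0.05, adjusted p = 3.71e-07). Cdc20 was the positive one (0.26 ± 0.06, adjusted p = 0.000625). Against Mock, Cdc20 had log2 fold changes of -0.26 with the mixture, -0.33 with IL12 and -0.20 with DRIL18. Mki67 had an interaction of 0.06 ± 0.06 (adjusted p = 0.48), with a 95% interval between -0.06 and 0.17.

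**Figure D4:**
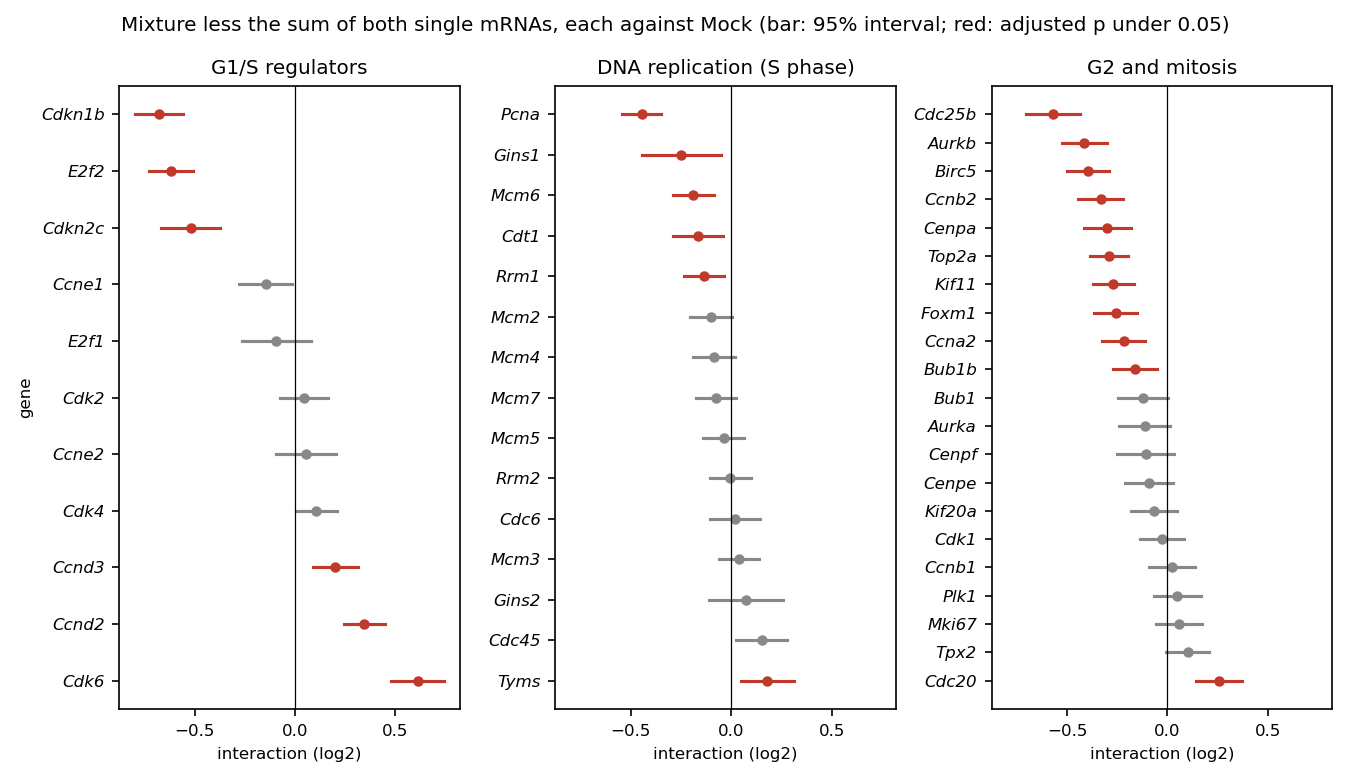
Interaction for 47 of the genes by class (x: log2 fold change of the mixture less the sum of both single mRNAs, each against Mock; points with 95% intervals; red: adjusted p under 0.05). Ccnd1, whose interval is wide at its low counts, is left out. Cdkn1b, E2f2 and Cdc25b lie farthest to the left and Cdk6 and Ccnd2 farthest to the right.

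Replication genes gave 5 negative interactions and 1 positive, with Pcna the most negative (-0.45 ± 0.05, adjusted p = 6.48e-09) and Tyms the positive one (0.18 ± 0.06, adjusted p = 0.0324), which was lost without either DRIL18 library, IL12 replicate 2, mixture replicate 1 or Mock replicate 1 (highest adjusted p = 0.231). Of the negative ones, those of Gins1, Cdt1 and Rrm1 were also lost without single libraries, and the number negative was 2 without DRIL18 replicate 1 or Mock replicate 1 and 3 without DRIL18 replicate 2, IL12 replicate 1, mixture replicate 2 or Mock replicate 2 (highest adjusted p = 0.218, 0.176 and 0.125). Of the G1/S regulators 3 were negative and 3 positive, where 17.1% of all tested genes were called negative and 14.6% positive. The negative ones were Cdkn1b (-0.68 ± 0.06, adjusted p = 8.55e-11), E2f2 (-0.62 ± 0.05, adjusted p = 9.78e-11) and Cdkn2c (-0.52 ± 0.07, adjusted p = 7.2e-07). The positive ones were Cdk6 (0.61 ± 0.06, adjusted p = 5.89e-09), Ccnd2 (0.34 ± 0.05, adjusted p = 1.56e-06) and Ccnd3 (0.20 ± 0.06, adjusted p = 0.0051). For Cdk6 and Ccnd2, the mixture libraries lay above Mock and the IL12 libraries below it. Pcna rose against Mock by 0.20 on the log2 scale with the mixture and by 0.64 with IL12. The negative value of Pcna is thus a smaller rise than the sum.

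Mock against NoEp sets electroporated cells against cells read as not electroporated, whose handling over the last 24 h is not stated separately. Here 22 of the 48 genes were called higher and 1 lower, where 6.98% of all genes were called, 3.34% higher and 3.64% lower. All 15 replication genes were among those higher, with log2 fold changes between 0.12 and 0.23 and a median of 0.17. The widest was Gins1 (0.23 ± 0.07, adjusted p = 0.0366) and the narrowest Mcm4 (0.12 ± 0.04, adjusted p = 0.0415). The number of replication genes called was between 3 and 15 without single libraries. Of the mitotic genes 5 were higher, or between 0 and 6 without single libraries, led by Aurkb (0.17 ± 0.04, adjusted p = 0.00576). Cdkn1b was the gene called lower (-0.18 ± 0.04, adjusted p = 0.00562). These differences are small, and their calls depended on single libraries and on the mark in the column names. The number called was 4 without Mock replicate 1, 8 without Mock replicate 2, 12 without NoEp replicate 1 and 9 without NoEp replicate 2. In each of these fits the calls over all tested genes fell as well. With the mark bis, which both NoEp libraries and neither Mock library carry, as a covariate 2 genes were called, both replication genes. Of all tested genes 1.09% were called with that covariate, against 6.98% without it. Between Mock and NoEp the mark and the electroporation cannot be told apart except through the other groups.

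Genes of the same pathways outside the 48 were described from lists, which were chosen with earlier results of these data known. For the counts of these lists the bis covariate and single libraries were not run. Of 44 other genes of mitosis and cytokinesis, 37 were called lower in the mixture against Mock and 1 higher, with a median of -0.50. The condensin genes Smc4 (-0.98 ± 0.03, adjusted p = 2.44e-21) and Ncapd2 (-0.79 ± 0.04, adjusted p = 1.02e-18), the cytokinesis motor gene Kif23 (-0.91 ± 0.04, adjusted p = 2.27e-18) and the spindle gene Ckap2 (-0.79 ± 0.05, adjusted p = 4.32e-15) changed most. The higher one was Pttg1, securin, at 0.50 ± 0.08 (adjusted p = 1.56e-06). With IL12, 37 were lower and 1 higher, and with DRIL18, 29 lower and none higher. Of all tested genes, 31.9% were called lower with the mixture, 23.6% with IL12 and 12.1% with DRIL18. The shares called higher were 32%, 23% and 12.2%. Smc4 was at 507 and 500.1 CPM with the mixture, 669 and 648 with IL12, 927 and 918 with DRIL18, 1001 and 983 in Mock, and 1048 and 1038 in NoEp, so that the mixture and IL12 libraries were low and DRIL18 lay just below Mock.

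Of 40 other replication genes, 12 were higher and 17 lower in the mixture against Mock, with a median of -0.07. In that comparison 32% of all tested genes were called higher and 31.9% lower. The origin recognition genes Orc1 (0.73 ± 0.07, adjusted p = 3.05e-10) and Orc6 (0.55 ± 0.05, adjusted p = 9.77e-12) and the clamp loader gene Rfc3 (0.55 ± 0.05, adjusted p = 8.86e-11) rose, and the GINS subunit gene Gins3 fell (-0.56 ± 0.07, adjusted p = 7.39e-08). In Mock against NoEp, 20 of these 40 were higher and none lower, with a median of 0.16. Over all tested genes 3.34% were called higher there and 3.64% lower. For the count of these 40 the bis covariate and single libraries were not run.

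With the mixture, the inhibitor gene Cdkn1a and the quiescence factor gene Klf2 changed more than any of the 48. Cdkn1a (p21), an inhibitor of cyclin E and Cdk2, was at 480.2 and 476 CPM with the mixture, 159 and 129 with IL12, 99.8 and 105 with DRIL18, 63.7 and 59.6 in Mock, and 56.7 and 48.8 in NoEp. The groups do not overlap, apart from Mock and NoEp lying close, and Cdkn1a rose by 2.96 on the log2 scale with the mixture (adjusted p = 1.02e-26), 1.22 with IL12 and 0.73 with DRIL18, with an interaction of 1.00 ± 0.09 (adjusted p = 1.03e-10). Cdkn2a, which encodes p16 and p19Arf from the same gene, rose with the mixture (0.99 ± 0.14, adjusted p = 5e-07) and IL12 (1.20 ± 0.14, adjusted p = 2.71e-08) at low levels of 9.19 CPM or less. Klf2, a factor that keeps T cells quiescent, was at 7.36 and 7.06 CPM with the mixture, 31.8 and 29.5 with IL12, 57.2 and 58.7 with DRIL18, 86.8 and 91.7 in Mock, and 115 and 104 in NoEp. It was lower in each group that received cytokine mRNA, most with the mixture (-3.63 ± 0.07, adjusted p = 1.21e-27).

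**Figure D5:**
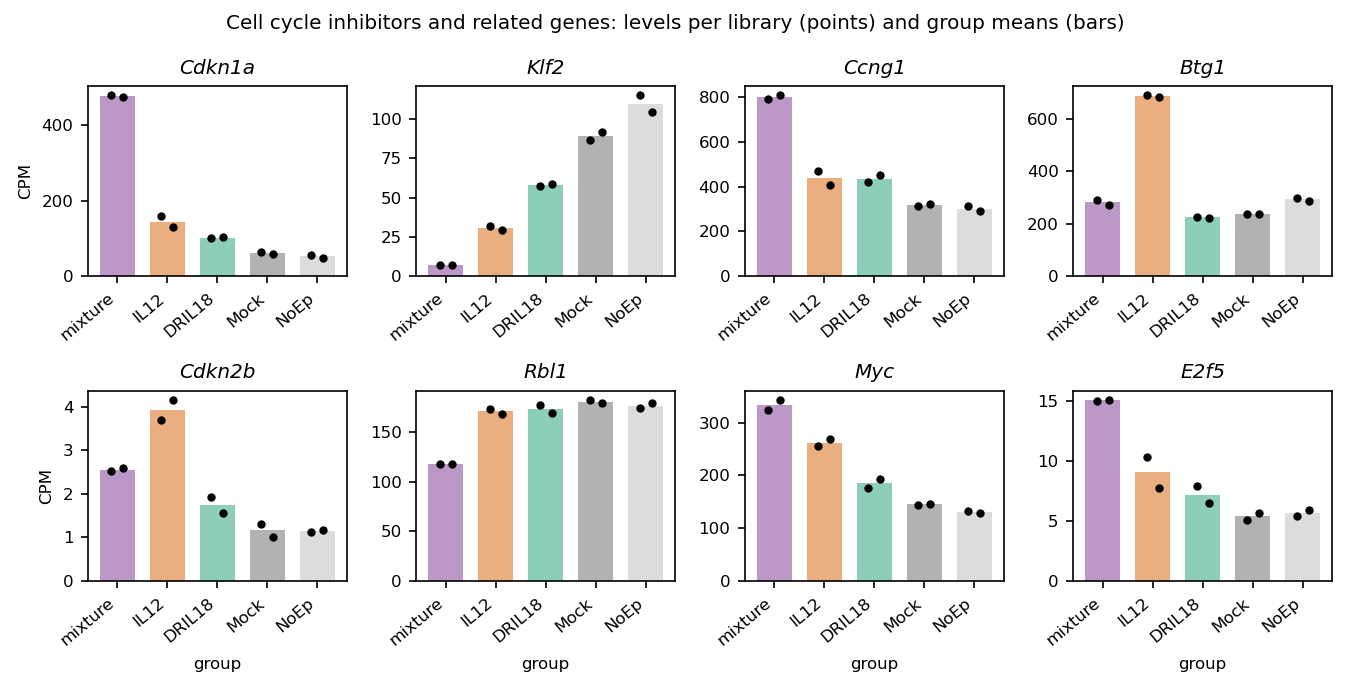
Levels in CPM of 8 genes outside the 48 (points: single libraries; bars: group means; axes start at 0). Cdkn1a, Ccng1, Myc and E2f5 are highest in the mixture, Klf2 and Rbl1 lowest in the mixture, and Btg1 and Cdkn2b highest in IL12.

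Ccng1, cyclin G1, also rose with the mixture (1.34 ± 0.05, adjusted p = 2.19e-21), while the antiproliferative gene Btg2 fell (-1.33 ± 0.05, adjusted p = 2.28e-20). Its relative Btg1 was highest with IL12 (1.53 ± 0.04, adjusted p = 9.27e-25). Of the pocket protein genes, Rbl1 (p107) fell with the mixture (-0.62 ± 0.04, adjusted p = 9.18e-15), followed by Rbl2 (-0.31 ± 0.04, adjusted p = 2.88e-07) and the retinoblastoma gene Rb1 (-0.16 ± 0.04, adjusted p = 0.00122). Over this list of 20 genes, of which 19 were tested, 6 were higher and 12 lower with the mixture. Among all tested genes 32% were called higher in that comparison and 31.9% lower.

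Among 17 other genes of E2F factors, cyclins and growth control, 8 were higher and 7 lower with the mixture. The share of all tested genes called there was 63.9%, 32% higher and 31.9% lower. Myc, which drives growth of activated T cells, was at 323 and 343 CPM with the mixture, 255 and 269 with IL12, 177 and 192 with DRIL18, 145 and 147 in Mock, and 132 and 129 in NoEp. The groups that received cytokine mRNA lay above Mock in the order mixture, IL12 and DRIL18 (1.19 ± 0.04, adjusted p = 3.35e-21 for the mixture), and the interaction was 0.00 ± 0.06 (adjusted p = 0.978). The phosphatase gene Cdc25a, which acts at G1/S, rose with the mixture (0.89 ± 0.05, adjusted p = 3.32e-16), as did E2f5 (1.49 ± 0.13, adjusted p = 1.14e-11). Tfdp2, a dimerisation partner of E2F factors, fell with the mixture (-1.10 ± 0.07, adjusted p = 2.69e-14) and with IL12 (-1.20 ± 0.08, adjusted p = 2.07e-14).

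Levels per length, as CPM per kilobase of merged exons in GENCODE M21, place the genes in Mock. Pcna was highest at 208 CPM per kilobase, followed by Rrm2 at 198, Top2a at 189, Ccnb2 at 161 and Mki67 at 157, and Ccnd1 was lowest at 0.0678. With the mixture the same measure was 238 for Pcna, 213 for Rrm2, 145 for Top2a, 81.8 for Ccnb2 and 84.3 for Mki67. How strands and reads with several alignments were treated is not stated in the sources used here. In the same annotation 17 members share exon bases with another gene. For 15 of them such a gene lies on the opposite strand, among them Cdc25b, Ccna2, Ccnd3, Cdk6 and Mcm7. Foxm1, Top2a and Mcm7 share exon bases with a gene on the same strand. Members with a pseudogene named after them number 5, which are Ccnb1, Ccnb2, Ccnd3, Pcna and Tyms. Reads of all these genes could thus have been split or shared.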

How the data were processed

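Bulk RNA sequencing of 10 libraries in 5 groups was used. The deposited table holds raw counts per gene, made by the authors with STAR 2.7.9 and featureCounts on mm39, per the submitters' processing notes. The deposited log2 table was not used. Of the gene identifiers, 52083 carry a symbol and 3276 do not. The members and gene lists were chosen with earlier results of these data known.

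Genes were filtered with filterByExpr in edgeR 4.0.16 (R 4.3.3), which left 15777 of 55359. TMM factors lay between 0.955 and 1.03. The quasi-likelihood F test used 1 mean per group over all 10 libraries, with 5 residual degrees of freedom and a common biological coefficient of variation of 3.39%. Comparisons numbered 8. SEs were the log2 fold change divided by the square root of F. The procedure was also run on simulated data with few genes changed, in the mixture group only. Far more genes were called in the mixture against Mock, so that run does not give the error rates in these data. Libraries of a group differed by more than counting noise, with chi-square per degree of freedom between 2.65 and 5.13.

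Alternatives were RLE size factors, no filter, DESeq2 1.42.0, limma-voom (limma 3.58.1), the replicate number as a block, the mark bis as a covariate, and each library left out. Named genes were members, and of the other lists up to 4 per comparison with the widest change past the test, with Cdkn1a, Cdkn2a, Rb1, Rbl1, Rbl2 and Myc in any case. Smc4 and Klf2 levels were shown as the widest of their lists. Depth limits low genes, here Ccnd1. Promoters were read from RefSeq on GRCm38.p6, which is not the build of the counts, and exon lengths and overlaps from GENCODE M21.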

Additional observations from a re-analysis of the deposited data

How the results depend on the processing

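No log2 fold change of the 48 genes changed sign under any of the 16 alternatives where it or its alternative passed the test. Over 384 pairs of a gene and a comparison, 237 were called, and of the results under the alternatives 5808 kept their side of the threshold, 265 lost a call and 71 gained one. When the mark bis entered as a covariate, the members called in Mock against NoEp were 2, with 2 higher and 0 lower, and those higher in DRIL18 against Mock were 2. With DESeq2, those lower in IL12 against DRIL18 were 7. Leaving out single libraries gave 4 to 26 members called in Mock against NoEp (4 to 25 higher, 0 to 1 lower), 0 to 4 higher in DRIL18 against Mock (0 without DRIL18 replicate 2), 8 to 13 higher in mixture against DRIL18, and 14 to 23 called and 6 to 11 lower in IL12 against DRIL18. The cause was not tested, beyond the smaller number of libraries in the fits that leave one out. In the mixture against Mock, 39 to 42 members were called without single libraries. Replicate numbers did not pair the samples (r between -0.03 and 0.05 over same-numbered deviations). With the replicate block, 24 members were called in Mock against NoEp, against 23 without it, and 42 in the mixture against Mock. At the depth of these libraries Ccnd1, with 6 to 22 counts, allows only wide intervals.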
